A study of Mus musculus with 12 samples.

Results

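Exonic RNA was compared between the wild-type mouse embryonic stem cell (ESC) lines of a study on microRNA loss, the line TFC and the line V6.5. The comparison took the 6 wild-type samples of the 12 in the series, 3 libraries of each line, and asked how the controls themselves differ in stem cell and differentiation state. Members were all genes with at least 10 normalised exonic reads in either wild-type column, 13878 of the 18412 genes listed. Per the labels, TFC served as control for Dicer1-/- cells and V6.5 as control for Dgcr8-/- cells, with 3 samples each that enter below only as side values. Neither wild-type line carries a deletion or a transgene in the labels, which do not explain the name TFC. V6.5 is a widely used line derived from a cross of inbred mouse strains. All groups were described as grown on gelatin, with no feeder cells named, in 15% serum and 1000 U/mL leukaemia inhibitory factor (LIF). Each line stands for itself alone, and the authors scaled its values together with those of its own knockout. The labels name no batch, so a difference between the lines and one between their handling cannot be told apart.

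ESCs keep the capacity to form every embryonic lineage through a core of transcription factors, Pou5f1 (Oct4), Nanog and Sox2. In serum with LIF, a further layer that includes Klf4, Klf2, Esrrb, Tfcp2l1 and Nr5a2 marks the naive state of the early epiblast, and LIF acts through its receptor and Stat3 to sustain part of it. Wnt, Bmp and Nodal signals can direct the same cells towards the primitive streak, where T (Brachyury) and Mixl1 come on. Simple keratins, contractile proteins and the targets of the coactivator Yap are commonly high in spread, adherent and differentiating cells.

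The deposited columns are group means, but each is a whole-number combination of 3 library steps, from which the reads of every library were recovered (99.5% of genes in TFC and 99.96% in V6.5 had 1 solution). The libraries are called A, B and C, where A is the library of each line least like the other 2. The letters B and C are arbitrary names. The wild-type libraries held 5933173 to 34163293 exonic reads, and library A of V6.5 was the shallowest. A library A was picked in this way in each of the 4 groups of the series, so some distance is given by the choice. By the correlation that picked it, A had 0.798 and 0.745 with B and C of TFC, against 0.811 between B and C. In V6.5 it was 0.814 and 0.775 against 0.907, and in Dicer1-/- cells only 0.851 and 0.863 against 0.866. Over 7000 genes, the A libraries of TFC and V6.5 had a rank correlation of 0.919, against 0.685 to 0.775 between an A library and the B and C libraries of its own line, while B and C of one line reached 0.946 to 0.948. Utf1, a chromatin factor of undifferentiated cells, shows the split, at 3743, 88.0 and 313 in A, B and C of TFC and 7196, 140.3 and 77.9 in V6.5. What made the A libraries differ was not tested. Calls are therefore given without and with a term for library set (A against B and C) in the linear model. Differences within A and within B and C are given for the main gene lists and for some genes. The sets were drawn from the same values that are tested, so calls with the term are descriptive. The term assumes 1 shift of A shared by both lines. Across genes, A minus the mean of B and C had a Pearson r of 0.516 between TFC and V6.5 (SD 1.88 and 1.68).

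Gene positions are from GENCODE M21 on build GRCm38 (mm10). All values below are normalised exonic reads per library on 1 common scale, and differences are V6.5 minus TFC in log2(value + 1), from limma with Benjamini-Hochberg adjustment over 13831 genes. Without the term, 25 genes (0.181% of those tested) were called higher in V6.5 at an adjusted p under 0.05 and 0 (0%) lower, while 1157 genes, 343 of them lower, had an unadjusted p under 0.05. With the term, 286 (2.07%) were called higher and 85 (0.615%) lower, and all 25 were among the 286. Every V6.5 library lay above every TFC library for 1180 genes (8.53%) and below for 709 (5.13%). Of all genes tested, 7252 were higher in V6.5 and 6579 lower, and the median difference was 0.04. A single library decided the count without the term: leaving out one at a time gave 1 (without TFC C) to 125 (without V6.5 A) calls. All 25 genes kept their sign in A and in B and C, with medians of 2.99 and 3.74, and 22 differed more in B and C. For the genes called with the term the medians in A and in B and C were 1.34 and 2.42 among the higher and -0.84 and -1.65 among the lower. Adjusted p over all settings tried reached at most 0.0777 for Igf2 and up to 0.796 for others of the 25. For the genes named below that were called with the term alone, the p given was the lowest of all settings, and the highest was 0.701 to 0.999. The genes named after the first 12 of the 25, and those called with the term outside the gene lists, were chosen after their values were seen.

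**Figure D1:**
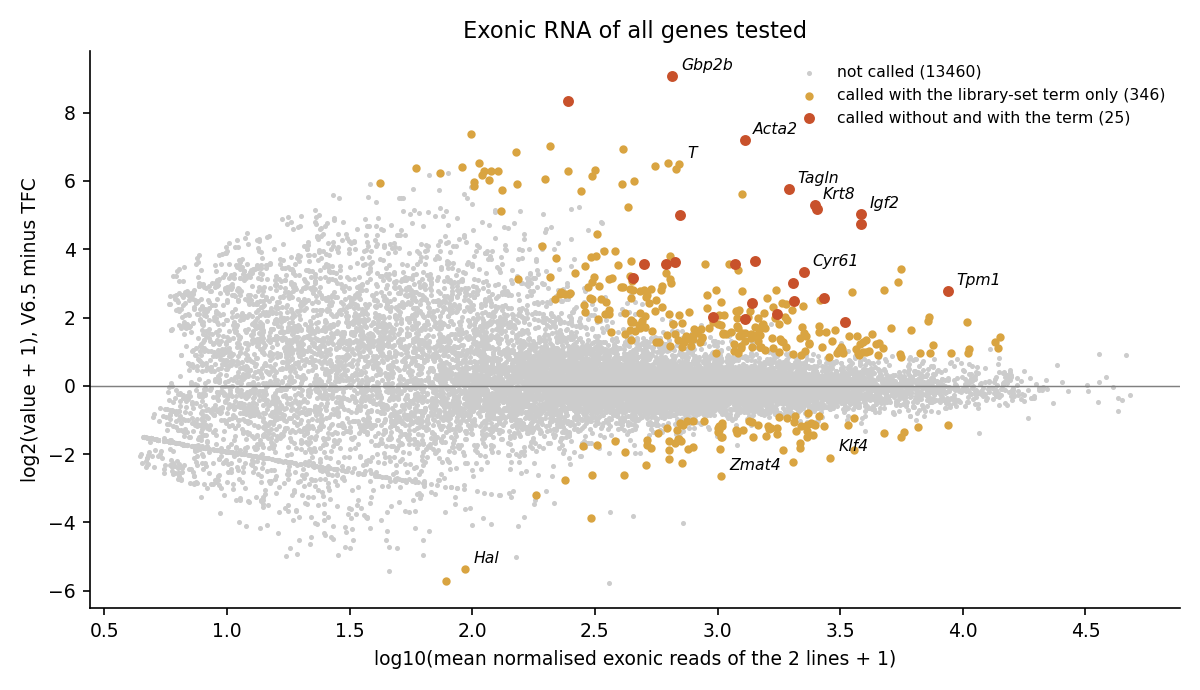
Difference between the lines (vertical axis, V6.5 minus TFC on the log2(value + 1) scale) against level (horizontal axis, log10 of the mean normalised exonic reads + 1) for 13831 genes. The 25 genes called without a library-set term are all above 0, and 346 more were called with the term alone.

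The genes of the contractile cytoskeleton were higher in V6.5. All 11 tested of the smooth muscle and cytoskeleton list were on that side, with a median difference of 2.55 (2.04 within A, 2.54 within B and C). Of these, 3 were called without the term, 7 with it, and 9 had no overlap between the lines, against the shares of all genes given above. Acta2, smooth muscle alpha-actin, stood at 14.7, 1.69 and 87.9 in libraries A, B and C of TFC and at 1314, 4106 and 2229 in V6.5. Even the lowest V6.5 library was far above the highest of TFC, and the difference was 7.21 (SE 1.10, adjusted p = 0.0475, 0.00289 with the term). Tagln (chr9:45929619-45936058, minus strand), the actin-binding protein transgelin, went from 85.8, 42.3 and 84.0 to 2863, 5376 and 3246, a difference of 5.75 (SE 0.43, adjusted p = 0.000771, 1.45e-05 with the term). By the deposited means after common scaling, Tagln was 53-fold and Acta2 71.8-fold higher.

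Tpm1, a tropomyosin that lies along actin filaments, was already abundant in TFC at 1656, 1969 and 2500.3 and reached 6816, 19249 and 19954 in V6.5 (2.78, SE 0.43, adjusted p = 0.0475). Cald1, caldesmon, which binds actin and tropomyosin, stood at 717, 1483 and 954 against 3425, 10627 and 15394. Its difference of 3.04 missed the threshold without the term (adjusted p = 0.071) and passed with it (0.00025). Cnn2 (calponin, 2.12, adjusted p = 0.00143), Myh9 (non-muscle myosin heavy chain, 1.69, adjusted p = 0.0051) and Flna (filamin A, 1.44, adjusted p = 0.0222) were also called with the term. Of the genes more restricted to mature smooth muscle, Myh11 and Actg2 were low in both lines. Myh11 stood at 0 to 33.2 in TFC and 4.87 to 52.0 in V6.5, and Actg2 stayed under the floor of 10 in both. Summed per kilobase of listed gene length, the tested members came to 2259 to 3238 in the TFC libraries and 10510 to 20320 in V6.5.

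Other cytoskeletal and cell surface genes were among the 25. Flnc, filamin C, stood at 218, 131 and 179.8 in TFC and at 1676, 3264 and 1616 in V6.5 (3.58, SE 0.40, adjusted p = 0.0123). Phldb2, a cortical protein that anchors microtubules near adhesions, went from 131 to 209 up to 881 to 3682 (3.65, SE 0.54, adjusted p = 0.0464), and the membrane protein gene Pmp22 from 57.2 to 127 up to 618 to 1774 (3.63, SE 0.54, adjusted p = 0.0464). Prss23, a secreted serine protease, had 16.1, 30.5 and 78.2 in TFC and 428, 1860.1 and 1787 in V6.5 (5.01, SE 0.79, adjusted p = 0.0489). Csrp1, a LIM protein of actin bundles, differed by 2.48 and Ptrf (cavin 1, a coat protein of caveolae) by 2.41. Each of these genes lacked any overlap between the lines.

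Among Yap and Tead genes, values differed by role. Yap1 itself was at 3283 to 3702 in TFC and 4605 to 5819 in V6.5 (0.55, SE 0.26, adjusted p = 0.644), and its DNA-binding partner Tead1 at 4056 to 5336 and 6150 to 10056 (0.77, SE 0.30, adjusted p = 0.507). Neither was called, with or without the term, although neither overlapped between the lines. The targets Cyr61 and Ctgf were called. Cyr61, a secreted matrix protein, stood at 327, 377 and 434 in TFC and at 2136, 5964 and 4286 in V6.5, a difference of 3.33 (SE 0.39, adjusted p = 0.0152, 5.5e-05 with the term). Ctgf, its relative, stood at 592, 545 and 828 against 2102, 3406 and 3047 (2.12, SE 0.31, adjusted p = 0.0464). Amotl2 and Amotl1, angiomotins that hold Yap at junctions, differed by 2.02 and 2.23 and the kinase adaptor Mob1a by 1.35, all 3 called with the term alone. Over the list, 17 of 20 tested genes were higher, 10 without overlap, with a median of 0.91 (0.58 within A, 1.23 within B and C). Thbs1, thrombospondin, a matrix protein outside the list, went from 113, 195 and 479 to 2009, 10413 and 9900.4 (4.75, SE 0.68, adjusted p = 0.0464).

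Upstream windows of 3 of these genes are shown because each holds the letters that a factor of this programme reads. They are RefSeq sequences of build GRCm38.p6, up to 250 bases before the annotated start and clipped where another transcript of the gene begins. In Cyr61 (chr3:145649986-145650235, minus strand) the capitals mark CATTCC, the core read by Tead factors, 103 to 98 bases before the start. In Cnn2 (chr10:79988350-79988583, plus strand) and Myl9 (chr2:156775214-156775419, plus strand) they mark a CArG box, read by serum response factor, at 56 to 47 and at 161 to 152 bases before the start.
Cyr61: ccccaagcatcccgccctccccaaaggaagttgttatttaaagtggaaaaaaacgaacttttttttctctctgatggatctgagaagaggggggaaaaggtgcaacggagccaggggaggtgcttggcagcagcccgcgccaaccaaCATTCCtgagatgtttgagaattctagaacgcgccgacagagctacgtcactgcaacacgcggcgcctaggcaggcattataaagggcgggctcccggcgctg
Cnn2: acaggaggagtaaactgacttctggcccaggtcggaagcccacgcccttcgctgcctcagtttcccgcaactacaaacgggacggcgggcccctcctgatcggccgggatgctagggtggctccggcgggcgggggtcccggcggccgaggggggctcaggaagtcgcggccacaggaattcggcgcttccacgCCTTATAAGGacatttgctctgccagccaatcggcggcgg
Myl9: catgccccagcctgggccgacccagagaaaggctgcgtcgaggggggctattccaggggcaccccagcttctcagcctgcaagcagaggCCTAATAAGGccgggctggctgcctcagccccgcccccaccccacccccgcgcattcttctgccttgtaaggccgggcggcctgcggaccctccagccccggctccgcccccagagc

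Searched on both strands, CATTCC was found in 12.6% of all 32851 RefSeq windows of that length, in 10.6% of the 11082 windows matched to tested genes, and in 6 of the 20 matched windows of the 25 called genes (Acta2, Cyr61, Mid1, Pmp22, Ptrf and Tpm1). Among genes called higher with the term it stood in 35 of 233 matched windows (15%). In the Yap and Tead list 10 of 16 matched genes had it. The CArG box stood in 1.47% of all windows, in 1.14% of those of tested genes and in 2 of 9 of the contractile list, Cnn2 and Myl9. It was in 0 of the 20 windows of the called genes and in 7 of the 233. Myl9, a myosin light chain, was at 39.97, 77.9 and 72.3 in TFC and 204, 524 and 280.1 in V6.5 (2.33, SE 0.69, adjusted p = 0.312, 0.0527 with the term). These matches describe letters and say nothing of binding.

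Genes of simple epithelia formed the next group. Krt8 and Krt18, the paired keratins of the first embryonic epithelia, were low in TFC and abundant in V6.5. Krt8 (chr15:101996698-102004482, minus strand) stood at 172, 84.6 and 108 in TFC and at 5128, 6594 and 2819 in V6.5. Its difference was 5.29 (SE 0.42, adjusted p = 0.000865, 1.41e-05 with the term). Krt18 stood at 151, 72.8 and 221 against 3912, 5632 and 5303 (5.17, SE 0.42, adjusted p = 0.000878). By the deposited means they were 39.0-fold and 32.8-fold higher in V6.5.

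Junction genes followed in part. Of 21 tested keratin and junction genes, 19 were higher in V6.5, 3 called without the term and 10 with it, 12 without overlap, with a median of 1.10 (0.86 within A, 1.49 within B and C). Dsp, desmoplakin, which links keratins to desmosomes, went from 1465, 930 and 881 to 3308, 10665 and 11479 (2.80, SE 0.47, adjusted p = 0.0651, 0.00289 with the term). Cdh1, E-cadherin, was high in both lines, at 7985 to 9821 in TFC and 12379.5 to 24118 in V6.5 (1.10, adjusted p = 0.0341 with the term). Krt19 and Krt7 were listed at 0 in TFC libraries B and C (222 and 26.4 in A) and at 299.6 to 829.5 in the libraries of V6.5. The other members called with the term were Cldn4, Cldn6 and Dsc2. Epcam, an adhesion molecule of ESCs, lay on the other side, at 2919 to 3938 in TFC and 2309 to 2708 in V6.5 (-0.45, SE 0.26, adjusted p = 0.746).

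**Figure D2:**
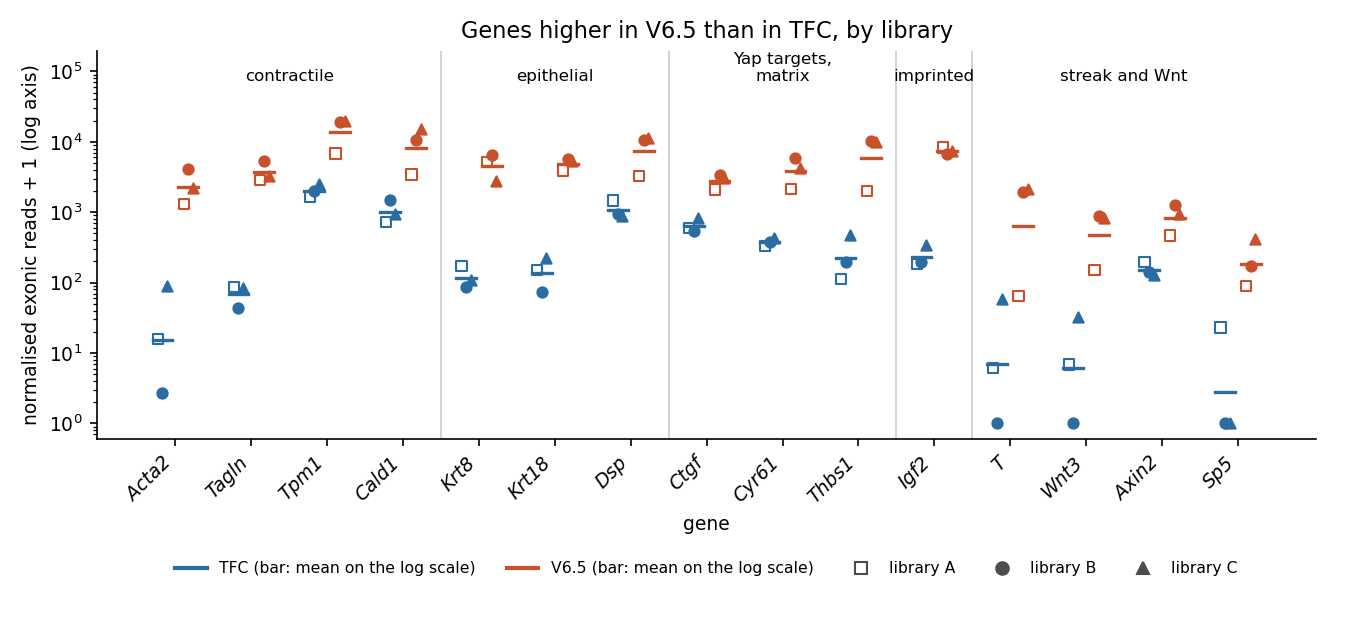
Normalised exonic reads + 1 (log axis) in each library for genes higher in V6.5, by role. Squares, circles and triangles are libraries A, B and C, and bars are means on the log scale of 3 libraries. The lines do not overlap for any gene shown, and library A of V6.5 is the lowest V6.5 library for every gene except Krt8 and Igf2.

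Igf2 (chr7:142650766-142666816, minus strand), an imprinted growth factor of the embryo, differed by a like amount in both library sets. It stood at 182, 193 and 336 in TFC and at 8293, 6782 and 7379 in V6.5, a difference of 5.03 (SE 0.32, adjusted p = 0.00031, 3.73e-06 with the term), 5.50 within A and 4.79 within B and C. Intronic reads of Igf2 averaged 2.70 and 289. Their difference in log2(value + 1) was 3.19, less than these means would give, and it was not called with or without the term. Of 19 imprinted genes tested, 16 were higher in V6.5, with a median of 0.63 (0.51 within A, 0.72 within B and C). Only Igf2 and, with the term, Plagl1 (2.82, adjusted p = 0.0103) were called. Peg3 was alike in level, at 4032 to 5598 and 2729 to 7133 (0.12, SE 0.39, adjusted p = 0.968). Peg10 had no single solution in V6.5 exons and was not tested there.

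The rest of the 25 do not share one role. Gbp2b, a guanylate-binding protein, held 2 reads in all of TFC and 117, 1668 and 2139 normalised reads in V6.5 (adjusted p = 0.0475). Prtg, a receptor of the early neural tube and mesoderm, was at 661 to 912 and 2931 to 6254 (2.56, SE 0.33, adjusted p = 0.0322). Mid1, an X-linked ubiquitin ligase, was at 1245 to 1673 and 4245 to 6466 (1.86, SE 0.28, adjusted p = 0.0475). Slc40a1, the iron exporter ferroportin, differed by 3.17, Fgfbp1, a carrier of Fgf, by 3.57, Arl4c, a small GTPase, by 3.02, Unc5b, a netrin receptor, by 2.01, Cited2, a transcriptional coregulator, by 1.95, and Col4a2 by 3.56.

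Of the primitive streak genes, T and Wnt3 were called higher in V6.5, with the term alone. T (chr17:8434423-8442496, plus strand) was at 5.13, 0 and 56.7 in TFC and at 63.3, 1929 and 2108 in V6.5. The lines did not overlap, yet library A of V6.5 was close to the highest TFC library, and the difference of 6.5 (SE 1.72) was called with the term alone (adjusted p = 0.248 without it, 0.0341 with it). Within A it was 3.39 and within B and C 8.05. Wnt3, the ligand that starts the streak, was at 5.87, 0 and 31.3 against 151, 871 and 833 (6.31, SE 1.40, adjusted p = 0.151, 0.0219 with the term). Mixl1, a homeobox gene induced there, was at 8.07, 50.8 and 50.8 against 24.3, 435 and 773 (2.82, SE 1.36, adjusted p = 0.652, 0.0974 with the term). Eomes overlapped, at 189.6 to 218 in TFC and 63.3, 447 and 614 in V6.5, lower within A (-1.62) and higher within B and C (1.36).

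Of the 24 streak and mesoderm genes listed, 23 were in the table and 19 reached the floor, and 17 of these were higher in V6.5. None was called without the term and 2 with it, 9 did not overlap, and the median was 3.22 (1.81 within A, 3.68 within B and C). Members that reached the floor only in V6.5, such as Fgf8, are higher there by that choice. The count of 17 and the median are therefore set in part by the floor, and the median ranged from 1.69 to 4.08 over all settings. Most stayed low: Fgf8 was at 0 to 3.67 against 20.8 to 41.9, Kdr at 0 to 27.4 against 24.3 to 97.9, and Gsc, Mesp1, Foxf1 and Gata5 were under the floor. The summed level per kilobase was 128 to 173 in TFC and 464 to 2043 in V6.5. In these bulk samples, fewer cells of a type and less RNA per cell cannot be told apart.

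Wnt pathway genes included both sides. Of 41 tested, 30 were higher in V6.5, 6 called with the term (Wnt3, Wnt4, Wnt6, Fzd10, Axin2 and Sp5) and 0 without it, 15 without overlap. The median was 1.53, but 0.36 within A and 2.10 within B and C. Wnt genes that reached the floor only in V6.5, such as Wnt6, are higher there by that choice, which favours this count and median. Axin2, a feedback inhibitor and direct target of beta-catenin, was at 197, 141 and 128 in TFC and 465, 1257 and 947 in V6.5 (2.42, SE 0.49, adjusted p = 0.122, 0.00942 with the term). Sp5, another direct target, was at 22.0, 0 and 0 against 87.6, 173 and 414 (adjusted p = 0.234, 0.0494 with the term). Ctnnb1, beta-catenin itself, was at 12275 to 14123 and 14584 to 18119 (0.31, SE 0.32, adjusted p = 0.864). Sfrp1, a secreted Wnt antagonist, was the 1 member called lower, at 4136, 3623 and 2396 in TFC and 1087, 992 and 770.0 in V6.5 (-1.81, SE 0.31, adjusted p = 0.0702, 0.00178 with the term). Lef1 overlapped fully (-0.14, SE 0.67, adjusted p = 0.977).

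The upstream windows of T (chr17:8434173-8434422, plus strand) and Sp5 (chr2:70474673-70474922, plus strand) are shown because both hold letters read by Tcf and Lef, the DNA-binding partners of beta-catenin. The motif searched on both strands was CTTTG followed by a pair of letters each A or T. Capitals mark a match 235 to 229 bases before the start of T, and matches at 222 to 216 and at 104 to 98 bases before the start of Sp5.
T: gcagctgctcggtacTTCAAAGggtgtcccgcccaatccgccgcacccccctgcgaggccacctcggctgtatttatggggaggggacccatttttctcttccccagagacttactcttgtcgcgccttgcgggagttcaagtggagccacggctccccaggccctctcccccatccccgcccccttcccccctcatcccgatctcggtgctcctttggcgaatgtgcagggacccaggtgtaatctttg
Sp5: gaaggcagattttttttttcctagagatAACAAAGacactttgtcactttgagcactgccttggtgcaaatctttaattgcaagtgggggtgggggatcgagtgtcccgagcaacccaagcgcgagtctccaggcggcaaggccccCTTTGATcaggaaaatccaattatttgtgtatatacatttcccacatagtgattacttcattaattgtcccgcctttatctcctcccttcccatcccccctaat

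Such letters stood in 14.8% of all windows and 10.4% of those of tested genes. In the Wnt list 4 of 26 matched genes had one (Wnt11, Fzd7, Dkk1 and Sp5), and in the streak list 1 of 15 (T). It was 1 of 20 for the genes called without the term (Mid1) and 21 of 233 (9.01%) for those called higher with it. Axin2 had none in this window.

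Of the other lines of patterning, Bmp genes were higher in 21 of 25 tested, with a median of 1.27 (1.20 within A, 1.45 within B and C). Of the 25, 0 were called without the term and 3 with it, and 8 did not overlap, beside the shares of all genes given above. Bmp genes that reached the floor only in V6.5, such as Bmp2, are higher there by that choice, which favours this count and median. Bmp2, a ligand, was at 5.13, 0 and 0 in TFC and 58.4, 258 and 312 in V6.5, and Nog, an antagonist, at 7.33, 1.69 and 0 against 92.4, 175 and 329.6. Both were called with the term (adjusted p = 0.0332 and 0.0348), as was the ligand Bmp8b (3.74, adjusted p = 0.0103). Id1, a target, overlapped, at 218 to 409 and 209.7 to 1139. Among 29 Nodal and Tgf-beta genes, 25 were higher, with a median of 0.43 (0.25 within A, where 17 were higher, and 0.48 within B and C). This median was -0.05 under the authors' separate scaling but 0.26 to 0.39 relative to all genes under the scalings tried. Tgfb2 went from 23.5, 0 and 46.9 to 326, 1503 and 1882 (6.53, adjusted p = 0.0193 with the term), while Nodal, Lefty1 and Lefty2 overlapped. Of 23 Hox genes, 17 reached the floor, and all 17 were higher, at low level, with a median of 3.26. Within A, 11 of the 17 were higher. Hox genes that reached the floor only in V6.5 are higher there by that choice, so the floor favours this count and median. Of the 17, 0 were called without the term and 1 with it, and 4 did not overlap, against the shares of all genes given above. The median ranged from 1.22 to 4.54 over all settings. Dusp4, an Erk phosphatase induced by Erk signalling, was at 298 to 646 and 968 to 2495 (2.2, adjusted p = 0.0128 with the term).

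Several matrix genes were called higher in V6.5, some of which also mark fibroblasts. Col4a2, a chain of basement membrane collagen, was at 112, 67.7 and 87.9 in TFC and 1620.1, 1236 and 569 in V6.5 (3.56, SE 0.52, adjusted p = 0.0464). With the term, Col4a1, Lamb1 and Sparc were called too. Of 13 basement membrane genes, 10 were higher, with a median of 0.95 (0.29 within A, 1.22 within B and C). Col1a1 went from 65.3, 0 and 56.7 to 958, 1689.5 and 1272 (6.35, SE 1.40, adjusted p = 0.151, 0.0188 with the term), and Col1a2 and Col5a1 were called with it. Of 18 fibroblast and feeder genes, 14 were higher, 3 called with the term and 8 without overlap, with a median of 2.25 (0.98 within A, 2.70 within B and C). Thy1, Lum and Dcn were not: Thy1 stood at 94.6 to 149 in TFC and 15.0 to 87.6 in V6.5, Lum at 0 to 30.5 and 0 to 47.9, and Dcn at 3.67 to 43.0 and 0 to 76.2. The list summed to 848 to 1279 per kilobase in TFC and 835 to 2391 in V6.5. The part of other cell types in the contractile and matrix results was not tested.

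**Figure D3:**
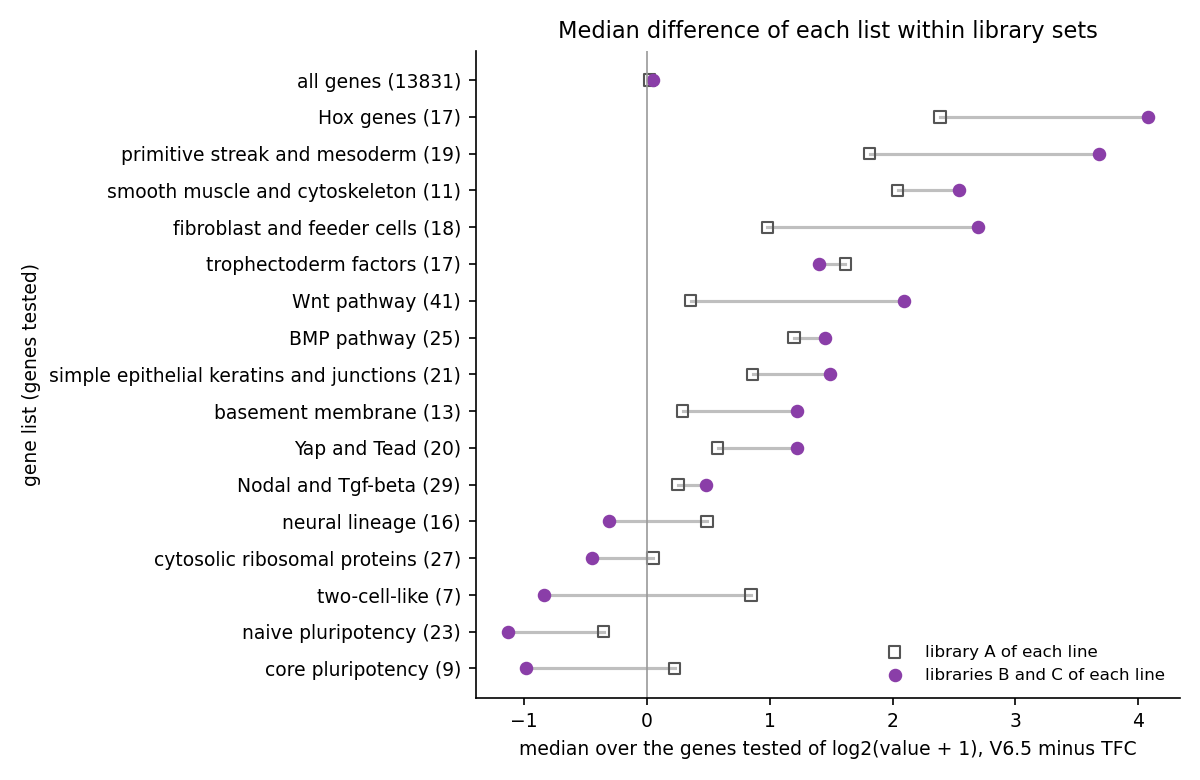
Median difference over the tested genes of each list (horizontal axis, log2(value + 1), V6.5 minus TFC) within library A (open squares) and within libraries B and C (filled circles). Contractile, keratin, streak and Wnt lists lie right of 0 in both sets, naive pluripotency left of 0 in both (-0.35 and -1.13), and core pluripotency changes side (0.23 and -0.98).

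Pou5f1, Nanog and Sox2, the defining markers of the labelled cell type, were abundant in all 6 libraries, while Utf1 of the same list was low in the B and C libraries of both lines. Pou5f1 stood at 15240.1, 9028 and 9751 in TFC and at 17855, 5402 and 4191 in V6.5. The lines overlapped, V6.5 being higher in A and lower in B and C, and the difference was -0.58 (SE 0.52, adjusted p = 0.848, 0.327 with the term). Nanog stood at 11671, 9478 and 9429 against 9514, 4395 and 6482 (-0.65, SE 0.35, adjusted p = 0.698). Sox2, which also serves the neural lineage, stood at 17147, 17064 and 13014 against 13535, 2496 and 6409 (-1.38, SE 0.54, adjusted p = 0.503, 0.0843 with the term). All 9 core genes tested had a difference under 0, and 0 were called with or without the term. The median was -0.65, but 0.23 within A, where 5 of 9 were higher, and -0.98 within B and C, where 0 were. Rif1, the tenth, had no single solution in TFC.

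The naive genes were lower in V6.5 in most cases. Of 23 tested, 17 had a difference under 0, of which 9 were called with the term and 0 without it, beside 0.615% of all genes. In addition 9, in part other genes, lay below every TFC library, beside 5.13%. Klf4 (chr4:55527143-55532466, minus strand), a target of Stat3, stood at 5474, 4192 and 3561 in TFC and at 2725, 418 and 908 in V6.5 (-2.10, SE 0.57, adjusted p = 0.254, 0.00817 with the term). Even library A of V6.5 was below each TFC library. Nr5a2, a nuclear receptor that binds the Oct4 gene, stood at 1664, 2640 and 2651 against 993, 702 and 792 (-1.47, SE 0.31, adjusted p = 0.133, 0.0095 with the term). Lifr, the LIF receptor, stood at 2293, 2263 and 2332 against 1299, 955 and 740.0 (-1.24, SE 0.29, adjusted p = 0.174, 0.0124 with the term).

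Klf2 and Esrrb differed between the library sets of a line as much as between the lines. Klf2 stood at 5361, 1687 and 1614 in TFC and 4097, 514 and 638 in V6.5, and Esrrb, an orphan receptor, at 13083, 6517 and 6300 against 9008, 2384 and 2081. For both, library A of V6.5 lay above B and C of TFC, but A was below A and B and C below B and C, and both were called with the term (adjusted p = 0.0377 and 0.0196). Nr0b1 (Dax1) stood at 2068, 1729 and 1937 against 1810, 391 and 427 (adjusted p = 0.041 with the term). Tcl1, a cofactor of Akt kinase, fell by 2.26 on the log2 scale (adjusted p = 0.00604 with the term), and Morc1 and Manba were the others called. Tfcp2l1 stood at 6785 to 11278 and 3496 to 7497 (-0.88, SE 0.36, adjusted p = 0.0523 with the term).

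Some other naive markers did not follow. Zfp42 (Rex1) stood at 3841, 7274 and 6251 in TFC and 9001, 5310 and 5655 in V6.5 (0.21, SE 0.35, adjusted p = 0.918), Dppa5a at 12107 to 12841 and 9968 to 22830 (0.11, SE 0.39, adjusted p = 0.972), and Dppa3 at 506 to 838 and 306 to 1333 (0.02, SE 0.51, adjusted p = 0.995). Prdm14, in contrast, was lower in V6.5 without overlap but was not called, at 211 to 463 and 68.9 to 199.5 (-1.50, SE 0.65, adjusted p = 0.576, 0.144 with the term). Over the list the median was -0.86, with 15 of 23 lower within A (median -0.35) and 22 within B and C (median -1.13). It stayed between -1.34 and -0.68 over all settings, and between -0.91 and -0.79 relative to all genes under the scalings tried.

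**Figure D4:**
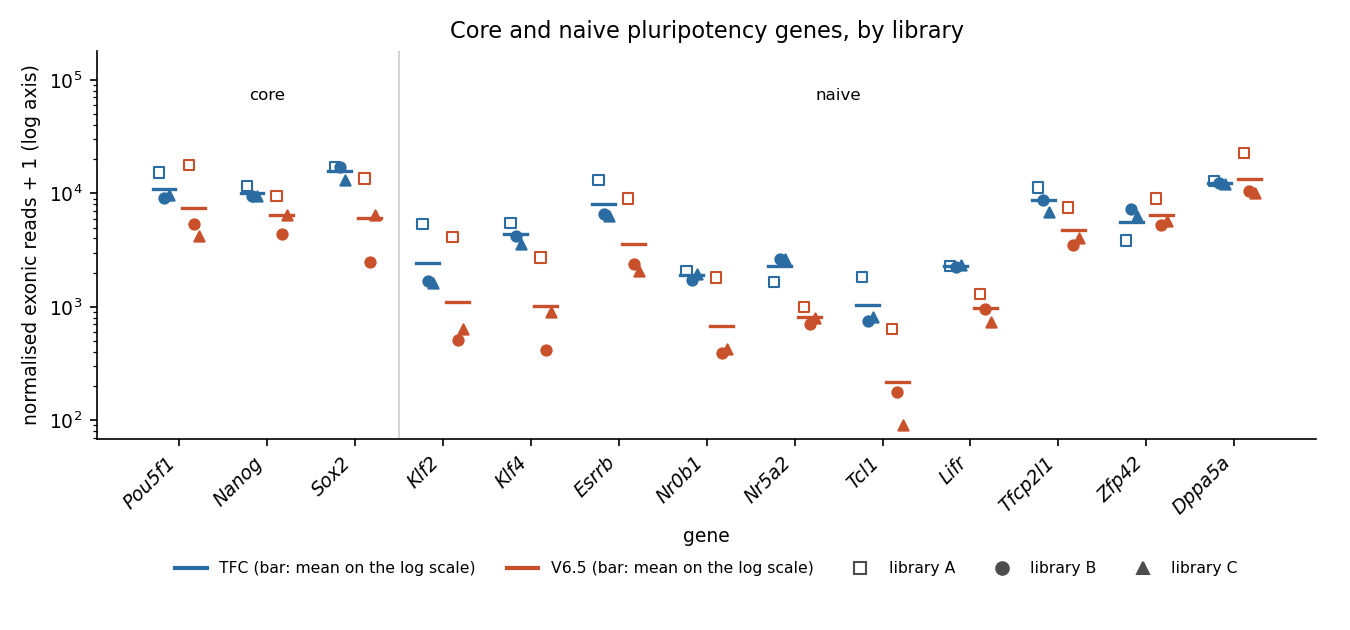
Normalised exonic reads + 1 (log axis) in each library for 3 core and 10 naive pluripotency genes, marked as squares, circles and triangles for libraries A, B and C, with means on the log scale as bars. Klf4, Nr5a2, Tcl1 and Lifr do not overlap between the lines, while Pou5f1, Zfp42 and Dppa5a do.

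Genes of the primed epiblast split, with 8 of 17 higher and a median of -0.14. The median was 0.36 within A, where 11 were higher, and -0.38 within B and C, where 7 were. Fgf5 was at 15.6 to 74.1 in TFC and 38.9, 262 and 625 in V6.5 (2.16, SE 1.14, adjusted p = 0.695), while Otx2 lay at 286 to 619 and 145 to 409 (-1.08, SE 0.55, adjusted p = 0.676). Krt18 was the 1 member called higher and Zic2 (-1.80, adjusted p = 0.0423 with the term) the 1 called lower. Dnmt3b was alike in mean level, at 3224 to 8839 and 5271 to 9195 (0.08, SE 0.43, adjusted p = 0.979), and Dnmt3l, a cofactor of de novo methylation, was at 4097 to 6291 and 1359 to 4639 (-1.32, SE 0.45, adjusted p = 0.402).

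Among other lineages, Cdx2, a factor of trophectoderm and posterior mesoderm, was at 5.13, 0 and 0 in TFC and 92.4, 185 and 153 in V6.5 (adjusted p = 0.151, 0.0341 with the term), the 1 call among 17 trophectoderm factors. Of these 17, 14 were higher and 6 had no overlap, with a median of 1.54 (1.62 within A, 1.40 within B and C). Factors that reached the floor only in V6.5, such as Cdx2, are higher there by that choice. Of 21 primitive and parietal endoderm genes, 14 were higher, 7 of them without overlap, with a median of 1.87 (1.17 within A, 1.76 within B and C). Of the 21, 1 was called without the term and 4 with it, all basement membrane genes given above. The transcription factors Gata4, Gata6 and Sox7 were all under 200 in every library, Sox17 and Foxa2 were under the floor, and Trh, a hormone precursor abundant in these cells, was lower in V6.5 (11488, 6577 and 6630 against 4104, 2177 and 2484, -1.50, adjusted p = 0.173, 0.00188 with the term). Of 16 neural genes Nes was called with the term (1.73, adjusted p = 0.0196), with Sox1 at 64.5 to 320 and 5.2 to 92.4 and Pax6 at 23.1 to 238 and 48.7 to 97.0. Neither the 7 genes of the 2-cell-like state nor the lists of Polycomb, DNA methylation, G1/S and heat shock genes had any call. In 7 more lists 1 to 4 genes were called with the term, Irf1 of 28 interferon genes (1.02), Bcl2l1 and Perp of 23 p53 and apoptosis genes (1.47 and 2.33), Dusp9 of 12 X-linked dosage genes (1.41), Rhox5 of 17 germline genes (1.88), Mmp14 of 14 mesenchymal genes (1.81), Slc2a1 and Hk2 higher (0.98 and 0.99) and Pfkp and Bnip3 lower (-1.30 and -1.87) of 18 glycolysis genes, and Dusp6 (0.99) beside Dusp4 of 22 Fgf and Erk genes. Among housekeeping groups, 25 of 27 ribosomal protein genes were lower in V6.5, 0 called, with a median of -0.32 (0.05 within A, -0.45 within B and C).

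Among the 85 genes called lower with the term, the 12 largest differences with a mean of at least 100 in TFC included enzymes and surface genes as well as Tcl1. Fut9, the fucosyltransferase that makes the SSEA-1 epitope of mouse ESCs, stood at 4884, 2968 and 2238 in TFC and 817, 482 and 776 in V6.5 (-2.24, SE 0.36, adjusted p = 0.0529, 0.000815 with the term). Zmat4, a zinc finger gene, stood at 958, 2725 and 1709.9 against 331, 229 and 239.7 (-2.64, SE 0.42, adjusted p = 0.0507, 0.00263 with the term). Acss1, a mitochondrial acetyl-CoA synthetase, stood at 1001, 693 and 466 against 139, 86.6 and 114 (-2.62, SE 0.49, adjusted p = 0.103, 0.00408 with the term). Hal, which breaks down histidine, went from 177, 181 and 176 to 19.5, 0 and 3. The others were Slfn3, Serpinb6c, Fgf1, Pou4f2, Itga9, Lrrc34 and Nlrp4f. Slfn3, Nlrp4f and Serpinb6c have close relatives in the genome, among which the authors' counting could have split reads.

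Genes of the sex chromosomes and genes known to vary between strains were read as well, since the labels give no strain for either line. All 6 Y-linked genes tested were lower in V6.5, 0 called and 4 without overlap. Eif2s3y was present in both lines, at 862 to 1946 and 577 to 1489, while Kdm5d stood at 86.3 to 279 against 4.87 to 23.97 and Zfy1 at 81.1 to 159 against 0 to 20.8. Zfp600 and Rex2, zinc finger genes with near-identical copies, were called lower with the term (-1.69 and -1.42), so their reads are uncertain. Dicer1, the gene removed in the knockout that TFC controls for, was at 2018, 2218 and 2375 in TFC and 3690, 4723 and 4448 in V6.5 (0.96, SE 0.26, adjusted p = 0.259, 0.0195 with the term), while Dgcr8 was at 1486 to 3318 and 1849 to 2769.8 (-0.05, SE 0.36, adjusted p = 0.987).

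Intronic reads, a separate readout of the same RNA that holds mostly unspliced transcripts, were tested in 12196 genes. Without the term 11 (0.0902%) were called higher and 5 (0.041%) lower, and with it 19 (0.156%) and 9 (0.0738%). Of the 25 genes, 22 had introns tested: 21 had the same sign and 20 were at least 2-fold higher, with a median of 3.65. Among all 11555 genes tested in both, 55.7% were higher and 21.9% at least 2-fold higher. Of the genes called higher with the term, 250 of 263 had the same sign and 208 were at least 2-fold higher, and of those called lower, 77 of 83 had the same sign and 48 were at least 2-fold lower, against 12.2% of all. Both readouts come from the same libraries. Of the intronic letters only A could be matched clearly to the exonic ones (r = 0.403 in TFC and 0.496 in V6.5 across genes).

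Tpm1 introns stood at 814, 632 and 760.2 in TFC and at 2098, 6673 and 6198 in V6.5 (2.60, SE 0.37, adjusted p = 0.00228), and Cald1 introns at 106, 153 and 241 against 415, 1348 and 1954 (2.70, SE 0.44, adjusted p = 0.00643). For both, the difference was close to that in exons, and the lines did not overlap. Klf4 introns averaged 85.2 and 6.98 and those of T 1.08 and 575, neither called (adjusted p = 0.436 and 0.109). Ctgf was the 1 of the 22 whose introns did not share the sign, at a mean of 12.3 and 12.6. Of the genes named above and called with the term alone, Sfrp1 (2.40), Dicer1 (-1.02), Dusp9 (-1.25) and Irf1 (-0.03) had intronic differences of the other sign, none called.

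**Figure D5:**
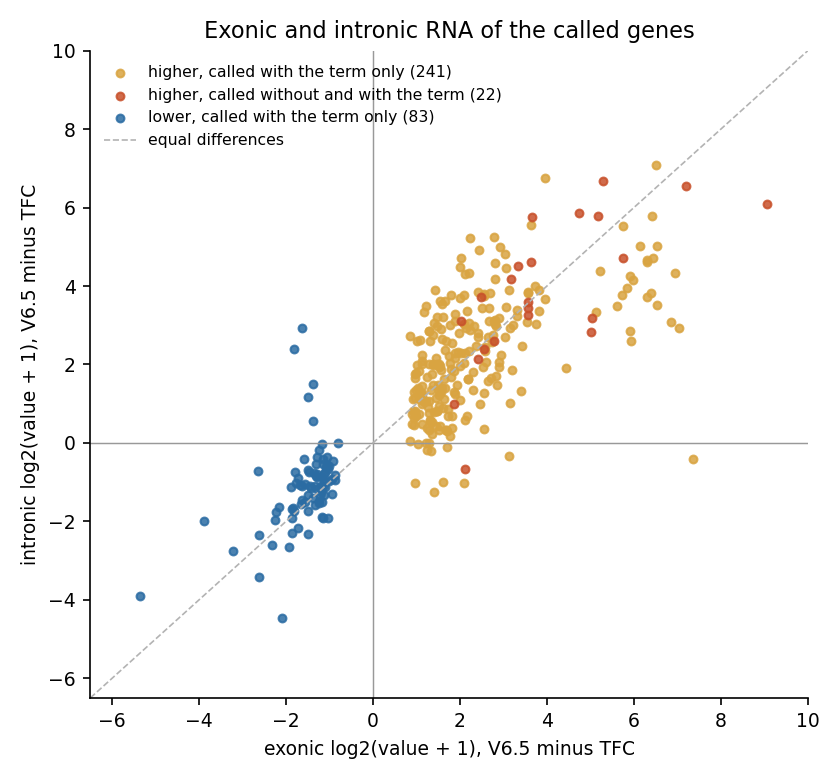
Intronic against exonic difference (both axes V6.5 minus TFC, log2(value + 1)) for genes called in exons that had introns tested: 22 called without and with the term, 241 higher and 83 lower with the term alone. Most points lie in the lower left and upper right quadrants, with 21 of 22, 250 of 263 and 77 of 83 sharing the sign.

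The lowest adjusted p in introns belonged to a gene with no exonic reads. Introns of Nlrp4e, a gene of the oocyte Nlrp family, stood at 25.3, 67.8 and 55.3 in TFC and at 910.0, 4985 and 3969.9 in V6.5 (5.81, SE 0.48, adjusted p = 6.69e-07), while its exons were listed at 0 in both lines. Introns of Anxa3 (4.71, adjusted p = 0.00513), Flt1, a Vegf receptor (3.43, adjusted p = 0.00197), and Peg10 (3.51, adjusted p = 0.0251) were also higher. Introns of Aire, a regulator of thymic self-antigens that is also expressed in ESCs, were lower, at 855, 769.9 and 574 against 254, 69.8 and 43.2 (-2.96, SE 0.47, adjusted p = 0.0052), with those of Nphs1, Aoah, Zfp951 and 2410141K09Rik. These intronic genes were chosen after their values were seen, and Nlrp4e has near-identical relatives.

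The knockout lines share these wild types as controls, so their means are only set beside them. For Tagln, 70.7 in TFC and 3829 in V6.5 stood beside 297 in Dicer1-/- and 456 in Dgcr8-/- cells, and for Krt8, 122 and 4847 beside 449 and 297. For T, 20.6 and 1367 stood beside 2.07 and 0. Igf2 had 237 and 7485 beside 1485 and 584. For Klf4, 4409 and 1350 stood beside 3326 and 2184, and for Nr5a2, 2318 and 829 beside 799 and 869. For Mid1, 1423 and 5194 stood beside 1821 and 5899.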

How the data were processed

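PolyA RNA was sequenced from strand-specific libraries made by the UTP method, per the labels' protocols, from 3 TFC and 3 V6.5 samples. The authors deposited normalised reads, a signal in which each library's reads were divided by its own factor, as 1 mean per genotype and table, per the file headers. The authors used TopHat2 2.0.12, DESeq and build mm10, per the submitters' processing notes. Which annotation defined exons and introns is not given in those sources. The tables were scaled separately by the authors.

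Each mean was solved for the whole reads of 3 libraries. In TFC exons 46 genes and in V6.5 exons 5 stayed ambiguous, and 43 and 2 with several solutions were kept where only 1 put the libraries close together, which favours a small spread. When columns were simulated, 99.4% (TFC) and 99.95% (V6.5) of genes were solved in 1 way only, every time correctly. Of the close choices, 62 of 67 and 4 of 4 were right. The simulated libraries of a line shared the same mean for each gene, so none stood apart as library A does. The rate of right close choices therefore need not hold in these data. Between 66.8% and 71.6% of recovered numbers were even, where single independent reads would give about as many odd ones, so no counting interval is given. Wild-type intronic depth was 559057 to 5597604 reads. No pair of libraries of a line agreed within sampling noise (chi-square per gene at least 46.8 in exons and 13.5 in introns).

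Reads were divided by 1 median-of-ratios factor per library over both tables. Genes at 10 or more in either deposited column were tested (47 unsolved ones were left out) with limma 3.58.1 in R 4.3.3 on log2(value + 1) with a trend on level, V6.5 minus TFC, with no covariate (4 residual degrees of freedom) or a library-set term (3). The added 1 understates the differences of low genes, while a library at 0 can widen them. A low gene that reached 10 in 1 line only is higher in that line by this choice, which bears on counts and medians of lists of low genes. Called means a Benjamini-Hochberg adjusted p under 0.05. The model was run on simulated reads with no shift of library A or with the same shift in both lines, as the term assumes. Shifts that differ between the lines were not simulated, so the simulation does not show how the term does on such data. With 3 libraries a line, the smallest two-sided p of an exact permutation test is 0.1. The labels do not say whether the libraries came from separate cultures, so p-values measure only the spread between libraries, which may be technical. Named genes are the 12 highest and 12 lowest called differences whose groups do not overlap, with a mean of at least 100 in the higher line, a fixed set of state markers, and called members of 35 gene lists. Members and lists were chosen with earlier results of these data known. Motifs were searched in RefSeq windows matched by symbol. A few genes are not reported here.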

Additional observations from a re-analysis of the deposited data

How the results depend on the processing

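Without a library-set term, 25 genes were called in exons, and 27 with 10 added in place of 1, 20 after quantile normalisation and 26 among genes with 1 solution. The count was 9 with 0.25 added, 15 without a filter, 8 with at least 10 in both columns, 6 with at least 50 in either, 7 after scaling to total reads, 9 on the authors' separate scaling (6 higher and 3 lower), 7 with limma-voom, 0 without a variance trend (1103 genes had an unadjusted p under 0.05) and 0 on libraries B and C alone (2545 genes), where fewer samples enter. It was 371 with the library-set term, and 1 to 125 when leaving out 1 library at a time. The authors' scaling moved the median difference of all genes from 0.04 to -0.43. In introns 16 genes were called, 91 with 10 added, 2 with at least 50 in either column, 28 with the term, and 0 to 29 when leaving out 1 library at a time. By the deposited means, 1565 genes differed at least 4-fold (798 higher and 767 lower), and 669 by at least 20 percentile points of rank, with all 1565 on the same side by rank. Of 135 genes followed through 2553 pairs of gene and setting, 2104 stayed on their side of the threshold with the same sign, most of them never called, 280 lost a call, 119 gained one, 50 uncalled ones changed sign and 0 called ones reversed. Medians of 35 lists moved by more than the spread between libraries in 66 of 665 cases. The cause of these changes was not tested. Library A of V6.5, the shallowest, limits what low genes can show. No paired analysis was possible because A, B and C cannot be matched to the labels' replicate numbers.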
